A study of Mus musculus with 26 samples.

Results

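The genes described here encode splicing factors, and they were taken by symbol: every transcript of the 5-ethynyluridine (5-EU) decay tables whose gene name begins with Srsf and a digit, Hnrnp, Sf3a, Sf3b, U2af, Snrp, or Prpf and a digit. The rule found 66 genes of 10104 transcripts listed for either cell type. Of these, 65 were listed for both cell types, as were 8177 of all transcripts, and the same 65 had a half-life in all 5 replicates, as did 8112 of all transcripts. Prpf3 was listed for oligodendrocytes alone. The members were divided by symbol into 10 SR proteins (Srsf), 20 hnRNPs (Hnrnp), 12 snRNP proteins (Snrp), 11 factors of the U2 snRNP and the 3′ splice site (Sf3a, Sf3b and U2af) and 13 Prpf factors, of which 12 were measured in every replicate. Symbols that begin with Snrnp are not matched by the rule and are counted with the other splicing genes at the end.

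The samples were oligodendrocyte progenitor cells (OPCs) and oligodendrocytes (OLs), all of strain 129S/SvEv. The OPCs had been derived from epiblast stem cells and grown with bFGF and PDGFA. For OLs such OPCs were passaged without bFGF and then differentiated for 40 h in medium with T3, noggin, IGF-1, cyclic AMP and NT3. Both cell types took up 5-EU, a uridine analogue, for 24 h, after which it was replaced by uridine. Labelled RNA was collected at 0, 1, 2, 4 and 6 h of this chase and pulled down through biotin, in 3 OPC replicates and 2 OL replicates with 1 library per time point. The cells were grown in culture, and the study notes that part of the OL culture remains undifferentiated.

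Splicing factors recognise introns in pre-mRNA and assemble the spliceosome. SR proteins bind exons through an RNA recognition motif and recruit the spliceosome through a tail of alternating arginine and serine residues, and hnRNPs often act against them at the same exons. The Snrp genes include the Sm proteins, which form the ring around spliceosomal snRNAs, and proteins particular to the U1 and U2 snRNPs. U2af1 and U2af2 read the 3′ splice site, the Sf3a and Sf3b proteins anchor the U2 snRNP at the branch point, and many Prpf proteins join with the tri-snRNP or activate the assembled spliceosome. Many SR genes limit their own expression through alternative exons that expose the mRNA to decay. In oligodendrocytes, alternative splicing sets which forms of the myelin proteins Mbp and Mag are made, and Hnrnpa2b1 is known for carrying Mbp mRNA into the cell processes.

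A feature common to the SR class is the stretch that encodes the arginine-serine tail, and the richest 10 codons of a few members are shown because the same letters recur in genes with long and with short half-lives. Each stretch is coding sequence read 5′ to 3′ in the sense strand from GRCm38 with the GENCODE M21 annotation, lies within 1 exon, and has its arginine codons in capitals.
Srsf7, codon 192 on, chr17:80202714-80202743, minus strand: tccCGCtcaAGGtcgAGAtcaAGAtccAGG
Srsf1, codon 204 on, chr11:88049469-88049498, plus strand: AGAtctCGAtctCGAagcCGTagtCGTagc
Srsf2, codon 127 on, chr11:116852286-116852315, minus strand: CGCagcCGAtctCGAagcCGGagtCGGtcc
Srsf5, codon 197 on, chr12:80949757-80949786, plus strand: tctAGGtccCGTagcCGAtccCGTtcaCGA
Prpf38b, codon 272 on, chr3:108904705-108904734, minus strand: AGGtctccaAGAAGAtcaAGAagcAGAagt
U2af2, codon 26 on, chr7:5066429-5066458, plus strand: aagCGTagtcacagtCGCtctCGAagcCGA
The SR stretches shown hold 9 adjacent arginine-serine codon pairs in either order, those of Prpf38b and U2af2 hold 6, and the richest stretch of Srsf9, not shown, holds 5. Over whole coding sequences the SR class had a median of 16.9 such pairs per 100 codons, against 0.761 over the 8101 transcripts with half-lives and a usable coding sequence, of which 1 in 100 reached 3.57. The lowest SR gene was Srsf9 with 4.05, under several genes of other classes. Outside the Srsf genes, Prpf38b had 9.96 pairs per 100 codons, Prpf38a 7.37, U2af1 6.28, Prpf4b 6.16, Snrpe 3.26 and U2af2 3.18.

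The classes also differed in size and in the ends of their mRNAs. Transcripts of the Snrp class were short, with a median of 1200 bases against 3160 bases for all transcripts and a 3′ UTR of 398 against 1170 bases. The median AAA bias, the share of AAA among lysine codons, was 50.0% in the SR class, 44.4% in the hnRNPs, 39.2% in the Prpf class, 33.0% in the Snrp class and 28.6% in the U2 group, against 37.2% in all transcripts. The share of UUU among phenylalanine codons was 56.4%, 59.8%, 44.4%, 58.4% and 50.9% in the same order, against 44.7%. The AU-rich word ATTTATTTA was searched in the sense strand of 3′ UTRs and was present in 6.07% of all transcripts and in 1 member. This is Hnrnpa1, an hnRNP that favours exon skipping, and its site is shown with the word in capitals because the transcript lay at the 6 h ceiling in every replicate.
Hnrnpa1, word at 3′ UTR base 452, stretch chr15:103244684-103244710, plus strand: ccatttggaATTTATTTAtggttgctt
The shorter word ATTTA was present in the 3′ UTR of 43 members and of 70.4% of all transcripts. A match describes the letters alone.

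The number of reads behind each FPKM value (fragments per kilobase of transcript, scaled to mapped reads) is unknown. Summed FPKM at 0 h was 391712 to 432287 in OPCs and 342224 to 350563 in OLs, and the authors' filter leaves no transcript at 0 at 0, 1 or 2 h. At 6 h 15.7% to 21.6% of all OPC transcripts and 0.79% to 4.08% of OL transcripts were listed at 0, among them 3 to 5 members in OPCs and at most 1 in OLs. The deposited half-lives are exponential fits to spike-in-scaled FPKM relative to 0 h, capped at 6 h. The fit returns 1.96 h wherever the 1 and 2 h points lie above the curve and the 4 and 6 h points below it. In OPC replicate 2 this value, within 0.01 h, was given to 25.6% of all transcripts and to 11 members, against 0.53% to 7.84% of all transcripts and 0 to 5 members in the other replicates, so half-lives near it are coarser than their decimals. Members at this value were in the SR, Prpf and Sf3a or Sf3b groups, and 0 hnRNPs or Snrp genes were. Of 8 oligodendrocyte markers, 3 were listed for OPCs with 39.2 to 57.5 summed FPKM at 0 h, and all 8 for OLs with 2567 to 5632. All 6 progenitor markers were listed in both cell types, with 528 to 643 summed FPKM in OPCs and 779 to 859 in OLs, and by limma Pdgfra, Gpr17 and Sox10 were higher in OLs while Olig2 was lower. Of 5 astrocyte markers Slc1a3 and Aldoc were listed in both, Gfap (6.86 and 8.12 FPKM) and Aldh1l1 (1.72 and 2.44 FPKM) in OLs alone, and the sums were 356 to 436 FPKM in OPCs and 267 to 385 in OLs. Of 4 neuronal markers Tubb3 alone was listed in both, and none of 4 microglial markers was listed.

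Half-lives of splicing factor transcripts differed widely by class. Medians of the hnRNP and Snrp classes lay above those of the SR and Prpf classes in all 5 replicates. In OPCs the mean of the class medians was 2.14 ± 0.130 h for Prpf, 3.94 ± 1.14 h for SR, 4.45 ± 1.40 h for Sf3a, Sf3b and U2af, 5.93 ± 0.117 h for hnRNPs and 6 ± 0 h for Snrp (SD, n = 3), beside 2.42 ± 0.382 h for all transcripts. In OLs it was 2.84 ± 0.00770 h for Prpf, 4.20 ± 0.290 h for SR, 5.89 ± 0.152 h for the U2 group, 5.66 ± 0.482 h for hnRNPs and 6 ± 0 h for Snrp (SD, n = 2), beside 4.49 ± 0.0703 h for all. The order of the cell types within a class depended on the processing. After the libraries were rescaled to 1 mean decay curve, the U2 group had 5.49 h in OPCs and 3.63 h in OLs, and the SR class 4.82 and 2.82 h. In a refit without 6 h libraries the Prpf median was longer in OPCs than in OLs. The U2 group had no fixed place, since it stood below the SR class in OPC replicate 1 and at the 6 h ceiling in OPC replicate 3 and OL replicate 1. Members of a class are not replicates, so no test was made between classes.

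**Figure D1:**
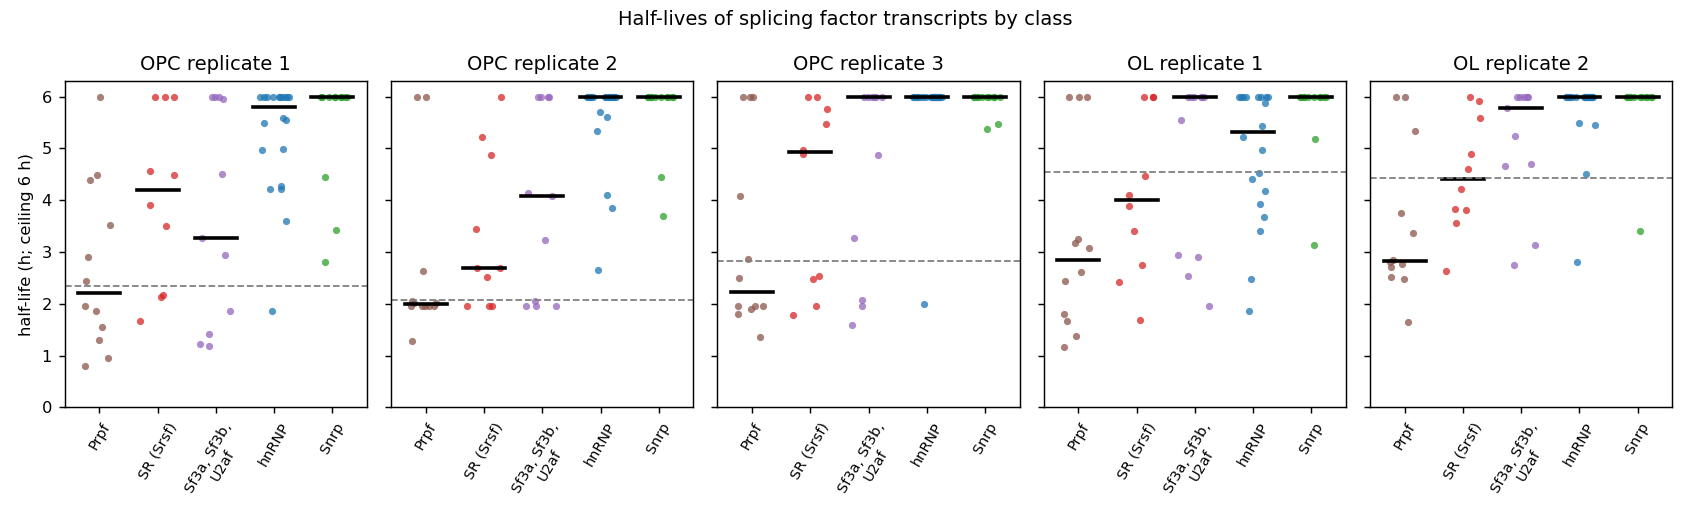
Half-life in hours of the 65 splicing factor transcripts, 1 panel per replicate and 1 point per transcript, with values capped at 6 h. Black bars are class medians and the dashed line is the median of all 8112 transcripts, and the Snrp median is at the ceiling in every panel while the Prpf median is at 1.99 to 2.23 h in OPCs.

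Because the median of all transcripts was longer in OLs, half-lives were also ranked among all transcripts of the same replicate, as a percentile. The SR class had a median percentile of 64.1 ± 4.50 in OPCs (SD, n = 3) and 47.6 ± 2.95 in OLs (SD, n = 2), and the values of the cell types did not overlap (59.2 to 68.1 against 45.5 to 49.6). The Prpf class had 41.9 ± 4.53 in OPCs and 29.8 ± 2.60 in OLs, again without overlap. The hnRNPs had 84.2 ± 3.16 and 67.6 ± 18.3, where OL replicate 1 gave 54.7. The Snrp class had 86.4 ± 1.94 and 79.7 ± 1.22, which are the ranks shared by all transcripts tied at 6 h. Of the 65 members, 16 were at 6 h in all 5 replicates, a share of 24.6% against 16.1% of all transcripts. They were 6 of 20 hnRNPs, 7 of 12 Snrp genes, Sf3b2, Sf3b6 and Prpf8, and 0 of 10 SR genes.

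Among SR transcripts, Srsf5 and Srsf9 ranked longest and Srsf7 shortest. The half-life of Srsf7, whose protein also serves in mRNA export, was 1.68, 1.96 and 1.79 h in OPC replicates 1, 2 and 3 and 2.42 and 2.64 h in OL replicates 1 and 2. At 6 h 8.34%, 6.74% and 9.11% of its 0 h level was left in OPCs and 18% and 21.8% in OLs. Its half-life was low in every replicate, with all OL values above all OPC values, as in 35.9% of all transcripts. Srsf5, a factor first known from growth-stimulated cells, had 6, 4.88 and 6 h in OPCs and 6 h in both OL replicates. Its label held at 93.7%, 56.7% and 116% of 0 h at 4 h in OPCs and then stood at 21.4%, 14.5% and 27.9% at 6 h, whereas OLs had 93.5% and 84.4% at 4 h and 50.3% and 86.9% at 6 h. A half-life at the ceiling thus went with a steep late loss in OPCs, which the single exponential does not hold. The median of all transcripts also fell there, from 39.6%, 21.2% and 37.8% at 4 h to 14.8%, 11.3% and 18.1% at 6 h. Srsf2, the SR transcript with the highest mean FPKM at 0 h, fell earlier in OPCs, from 89.5%, 92.4% and 106% at 2 h to 53.9%, 35.7% and 60.2% at 4 h. At 6 h 15%, 15.2% and 22.7% was left. Its half-life was 4.49, 2.69 and 5.47 h in OPCs and 6 and 5.91 h in OLs. Srsf9 was listed at 0 at 6 h in OPC replicate 1 and at 30.1% and 48.6% of its 0 h level in the other OPC replicates.

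As a class, SR transcripts in OPCs stood above the median of all transcripts in 2 of 3 replicates at 1 h and in all 3 at 2, 4 and 6 h. The median left at 4 h was 51.6%, 35.7% and 57.0% in the OPC replicates against 39.6%, 21.2% and 37.8% for all transcripts, and at 6 h it was 14.9%, 14.9% and 22.2% against 14.8%, 11.3% and 18.1%. In OLs it was 55.7% and 57.8% at 4 h against 59.2% and 58.6%, and 25.7% and 38.9% at 6 h against 33.0% and 39.4%. Their share of all FPKM in a library, which no library scale can move but which also depends on the other transcripts, went from 0.199%, 0.282% and 0.22% at 0 h to 0.0532%, 0.0716% and 0.0858% at 6 h in OPCs. In OLs it went from 0.187% and 0.185% to 0.0766% and 0.124%. The share was lower at 6 h than at 0 h in 5 of 5 replicates. The same held for the shares of the Prpf class and the U2 group, so the fall was not particular to the SR class.

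**Figure D2:**
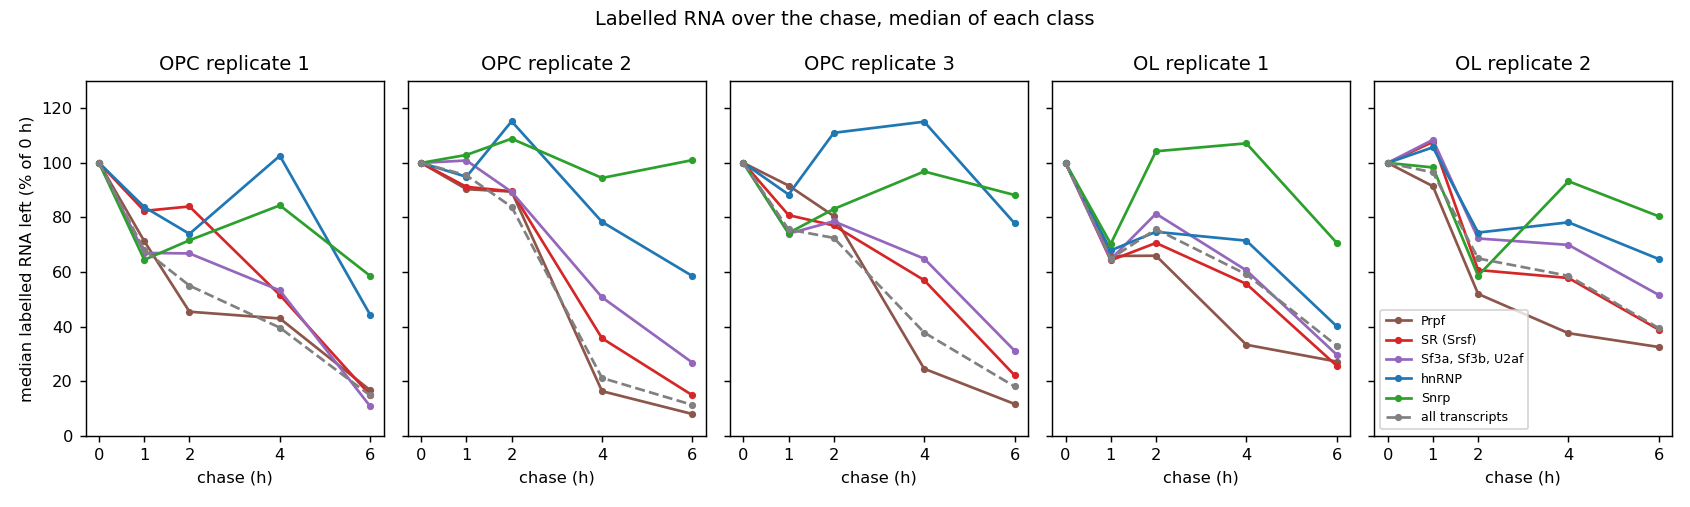
Median labelled RNA left (percent of the 0 h level, spike-in-scaled FPKM) in each class of splicing factor transcripts against hours of chase, 1 panel per replicate, with all transcripts dashed. In the 3 OPC panels the Snrp line ends at 58.6% to 101% at 6 h and the SR line at 14.9% to 22.2%, while in the OL panels the Snrp line ends at 70.7% and 80.4% and the SR line at 25.7% and 38.9%.

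In OPCs nearly all hnRNP transcripts kept more label than the median of all transcripts, and Hnrnph3 ranked shortest. In OPCs the class median left at 6 h was 44.3%, 58.5% and 77.9%, and 19, 20 and 19 of 20 members lay above the median of all transcripts. In OLs it was 40.1% and 64.7%, with 14 and 20 of 20 members above. Hnrnpa1, Hnrnpa2b1, Hnrnpa3, Hnrnpc, Hnrnpl and Hnrnpll were at 6 h in every replicate. Hnrnpa2b1 stood above its own 0 h level late in the OPC chase, at 152%, 158% and 214% at 6 h, and at 83.0% and 106% in OLs. For Hnrnpa1 the 6 h level was 119%, 154% and 150% in OPCs and 86.6% and 89.2% in OLs. Hnrnpk, the hnRNP with the highest mean FPKM at 0 h and a binder of C-rich RNA, had 40.6%, 75.3% and 82.6% left at 6 h in OPCs and 40.4% and 73.1% in OLs. Hnrnph3 had half-lives of 1.86, 2.66 and 2.00 h in OPCs and 2.48 and 2.80 h in OLs, the shortest of its class by mean rank. It was listed at 0 at 6 h in OPC replicates 1 and 3 and was low throughout, at 6.61 to 12.5 FPKM at 0 h in OPCs and 12 and 13.1 in OLs. Several hnRNP genes have close paralogs or processed pseudogenes (Hnrnpa1, Hnrnpa3, and Hnrnph1 with Hnrnph2), so reads may have been shared between copies in the authors' counting.

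The Snrp transcripts kept the most label of the 5 classes at 6 h in every replicate. The class median left at 6 h was 58.6%, 101% and 88.2% in OPCs and 70.7% and 80.4% in OLs. Snrpc of the U1 snRNP, the Sm genes Snrpd2, Snrpd3, Snrpe, Snrpf and Snrpg, and Snrpn, a form of the Sm B protein best known from neurons, were at 6 h in all 5 replicates. Snrpd2 had 123%, 209% and 123% left at 6 h in OPCs and 152% and 96.6% in OLs. Snrpb, which encodes the general Sm B protein and had the highest mean 0 h FPKM of the class, had 4.46, 6 and 6 h in OPCs and 6 h in both OL replicates. The shortest by mean rank over all 5 replicates was Snrpb2 of the U2 snRNP, with 6, 4.45 and 5.38 h in OPCs and 3.14 and 3.41 h in OLs. Both OL values lay below all OPC values, as in 2.01% of all transcripts. In OPCs alone Snrpd1 ranked lower, with 3.42, 3.69 and 6 h. Small Sm genes such as Snrpe and Snrpg have processed copies in the genome, and their FPKM may hold reads of those copies.

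The factors of the U2 snRNP and the 3′ splice site had half-lives from 1.18 h to the 6 h ceiling. Sf3b2 and Sf3b6 were at 6 h in all 5 replicates, and Sf3b5 and U2af2 in all but OPC replicate 1, where they had 5.94 and 4.50 h. U2af2 was also the highest of the group at 0 h in OPCs, with a mean of 154 FPKM, whereas in OLs it was at 78.0 and Sf3b6 at 105. In between lay Sf3b1, with 6, 3.23 and 6 h in OPCs and 2.91 and 6 h in OLs, Sf3b3, with 2.93, 4.09 and 4.87 h and 6 and 4.71 h, and U2af1. Sf3a1 was the shortest by mean rank, with 1.18, 2.06 and 1.96 h in OPCs and 2.54 and 2.76 h in OLs, and only 9.75%, 13.3% and 3.92% of its label was left at 6 h in OPCs. Sf3a2, its partner in the same heterotrimer, had 1.41, 1.96 and 2.07 h in OPCs and 6 and 5.24 h in OLs. Sf3b4 had 1.22, 1.96 and 1.58 h in OPCs and 2.94 and 4.66 h in OLs. For these 3 genes every OL half-life lay above every OPC half-life, as it did for 35.9% of all transcripts. Sf3a3, the remaining Sf3a gene, had 1.86, 1.96 and 6 h in OPCs and 1.96 and 3.13 h in OLs, which overlap.

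By the deposited half-lives most Prpf transcripts were short-lived in OPCs, and Prpf8, Prpf19 and Prpf39 were longer there. In a refit without the 6 h libraries the class median in OPCs was longer and lay near the middle of all transcripts. Prpf8, the scaffold at the centre of the spliceosome, was at 6 h in every replicate, although 24.6%, 27.8% and 41.1% of its label was left at 6 h in OPCs and 48.9% and 45.2% in OLs. Prpf19, a ubiquitin ligase and the highest Prpf transcript at 0 h, had 4.40, 6 and 6 h in OPCs and 6 h in both OL replicates. Prpf39 had 4.48, 2.64 and 6 h in OPCs and 1.39 and 2.77 h in OLs, which overlap. Prpf40b had 0.944, 1.96 and 1.36 h in OPCs and 6 and 3.38 h in OLs. Prpf38b had the lowest mean rank of all members, with 0.804, 1.29 and 1.8 h in OPCs and 1.81 and 2.71 h in OLs. Prpf38a, which joins the spliceosome before its activation, had 1.56, 1.96 and 1.96 h in OPCs and 2.60 and 1.66 h in OLs and was listed at 0 at 6 h in OPC replicates 1 and 3. Prpf18, a factor of the second splicing step, had 1.96 h in all 3 OPC replicates, the value at which the fit settles, and 1.18 and 2.82 h in OLs. Prpf3, listed for OLs alone, was at 6.53 and 3.30 FPKM at 0 h with half-lives of 0.614 and 3.58 h.

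The share of arginine-serine codons and stability were set side by side for all transcripts with at least 5 such pairs per 100 codons, a limit chosen with the values known. The 13 members above it had median percentiles of half-life of 61.3, 57.4 and 45.6 in OPCs and 39.6 and 43.4 in OLs. The 30 other transcripts above it had 49.0, 34.1 and 43.1 in OPCs and 42.6 and 41.5 in OLs. The 52 members under it had 74.3, 87.4 and 84.2 in OPCs and 78.8 and 80.6 in OLs. Transcripts rich in these codons ranked below the other splicing factor transcripts in 5 of 5 replicates, whether or not they were members. This is a description of lists that share libraries and, among SR genes, repeated sequence, and it was not tested.

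Decline over the chase was judged by limma from the slope of log2(FPKM + 1) per hour, 1 slope per replicate, a measure without a ceiling. In OPCs 41 of 65 members fell and 5 rose at a limma adjusted p under 0.05, where 80.8% of all 8177 transcripts fell and 3.01% rose. All 10 SR and all 12 Prpf members fell, as did 8 of 11 in the U2 group, 8 of 20 hnRNPs and 3 of 12 Snrp genes. The median slope of the members was -0.23 log2 units per hour against -0.38 for all transcripts. The rising members were Hnrnpa2b1 (0.15 ± 0.05 SE, adjusted p = 0.0122), Hnrnpa3 (0.13 ± 0.05, adjusted p = 0.0189), Snrpd2 (0.13 ± 0.05, adjusted p = 0.0287), Snrpf (0.12 ± 0.05, adjusted p = 0.0434) and Snrpg (0.12 ± 0.05, adjusted p = 0.0444), each with a positive slope in 3 of 3 replicates. Leaving out single OPC replicates left 1 or 2 rising members, where 0.819% to 2.25% of all transcripts rose, and leaving out the 6 h libraries left 1, where 1.17% rose. In OLs 34 of 65 members fell and 0 rose, where 57.6% of all transcripts fell and 0.538% rose, and the median slopes were -0.17 and -0.20. By class 8 of 10 SR, 9 of 12 Prpf, 5 of 11 in the U2 group, 10 of 20 hnRNPs and 2 of 12 Snrp genes fell. With a pseudocount of 0.1 only 12 members fell, where 28.2% of all transcripts did, and without 6 h libraries 14 fell, where 33.3% did. Without OL replicate 1 the count was 5, where 26.2% of all transcripts fell, and without OL replicate 2 it was 16, where 24.4% fell. With 1 OL replicate left, here and in the comparisons of cell types, the spread comes from the OPC replicates and OLs are assumed to vary like them.

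These directions are read on the spike-in scale that all transcripts of a library share. With each time point set to its 0 h median, which moved the median slope of all transcripts from -0.38 to 0.06 in OPCs and from -0.20 to 0.03 in OLs, 38 members rose and 7 fell in OPCs, where 40.1% of all transcripts rose and 16.2% fell. In OLs 14 members rose and 1 fell, where 21.8% of all rose and 8.72% fell. Gaps between classes within a replicate do not depend on that scale beyond the pseudocount. The median slope of the hnRNPs was less steep than that of the SR class by 0.28, 0.34 and 0.31 log2 units per hour in OPC replicates 1, 2 and 3 and by 0.10 in both OL replicates. For the Snrp class the gap to the SR class was 0.35, 0.46 and 0.33 in OPCs and 0.25 and 0.18 in OLs. Both gaps were larger in every OPC replicate than in any OL replicate. Against the Prpf class the hnRNP gap was 0.17, 0.43 and 0.43 in OPCs and 0.11 and 0.15 in OLs, and the Snrp gap was 0.23, 0.56 and 0.46 in OPCs and 0.25 and 0.23 in OLs, which overlap. The spread of all transcripts was also wider in OPCs, with an interquartile range of slopes of 0.30 to 0.37 against 0.22 to 0.25 in OLs, and the part of this in the gaps was not tested.

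Labelled splicing factor RNA at 0 h, after a day of labelling, was lower in OLs for many members. These 0 h values were read as carrying no spike-in scale, from how they are written, so a scale per library, if there was one, would shift all transcripts of that library. By limma on log2(FPKM + 1), 22 of 65 members were lower and 2 were higher in OLs at an adjusted p under 0.05, where 17.5% of all 8177 transcripts were lower and 14.1% were higher. The median log2 change was -0.37 for members and -0.01 for all transcripts. The lower members were 7 of 12 Snrp genes, 4 of 10 SR genes, 4 of 11 in the U2 group, 5 of 20 hnRNPs and 2 of 12 Prpf genes, and the median change was -0.73, -0.32, -0.52, -0.28 and 0.18 in these classes. The values of 34 members lay lower in both OL replicates than in all OPC replicates, against 31.4% of all transcripts, and those of 6 lay higher, against 28.0%. In these bulk cultures fewer cells that express a gene and less RNA per cell cannot be told apart.

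Among the core particles, the Sm gene Snrpe was at 237, 203 and 208 FPKM in OPCs and 115 and 112 in OLs, which as a log2 change is -0.92 ± 0.17 (SE, limma adjusted p = 0.00376). Snrpg was at 87.5, 62.2 and 75.5 FPKM in OPCs and 38.5 and 35.5 in OLs (-0.99 ± 0.20, limma adjusted p = 0.00542). In neither case did the groups overlap. Snrpa1 of the U2 snRNP was at 40.9, 42.9 and 46.4 FPKM against 25.3 and 24.3 (-0.78 ± 0.19, limma adjusted p = 0.0128), a call that was lost with the replicate block. Snrpc was at 95.9, 59.6 and 68.9 against 35.4 and 44.2 (-0.87 ± 0.23, limma adjusted p = 0.0195). Snrpb, the highest of its class, was at 327, 211 and 232 against 146 and 161 (-0.72 ± 0.22, limma adjusted p = 0.0337). All 3 were lower in both OL replicates. Snrpn went the other way, at 33.8, 22.6 and 30.9 FPKM in OPCs and 44.5 and 49.0 in OLs (0.68 ± 0.22, limma adjusted p = 0.0426). This call was lost without OPC replicate 2, OPC replicate 3 or either OL replicate and with the replicate block (limma adjusted p of 0.0159 to 0.203 over the alternatives). Snrpn and Snrpb encode alternative forms of the same Sm protein, and in the mean 0 h FPKM Snrpb was higher than Snrpn in both cell types, 257 against 29.1 in OPCs and 153 against 46.8 in OLs. The Snrpn transcript also carries the Snurf reading frame, so its FPKM describes both.

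At the 3′ splice site, U2af1 was at 83.0, 84.6 and 90.3 FPKM in OPCs and 46.5 and 49.0 in OLs (-0.83 ± 0.17, limma adjusted p = 0.0055). Its partner U2af2 was at 189, 134 and 138 against 84.1 and 71.9 (-0.95 ± 0.20, limma adjusted p = 0.00736). Both subunits of the heterodimer were thus lower without overlap. Sf3b3 had the lowest p of all members, at 89.7, 78.9 and 81.0 FPKM against 41.8 and 41.2 (-0.98 ± 0.17, limma adjusted p = 0.00267). Sf3a2 was at 29.1, 29.3 and 33.3 against 13.7 and 17.5 (-0.93 ± 0.22, limma adjusted p = 0.0116). Sf3b1, which encodes the largest SF3b subunit and binds the branch point, was at 36.9, 75.5 and 55.3 against 75.3 and 82.6 and did not pass (0.55 ± 0.27, limma adjusted p = 0.153). Prpf8 was at 155, 124 and 135 FPKM against 80.5 and 78.0 (-0.78 ± 0.18, limma adjusted p = 0.00906), and Prpf19 at 266, 157 and 176 against 117 and 118 (-0.72 ± 0.23, limma adjusted p = 0.0423).

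Of the SR genes, Srsf7 was at 129, 135 and 118 FPKM in OPCs and 68.9 and 59.5 in OLs (-0.98 ± 0.17, limma adjusted p = 0.00289). Srsf2 was at 227, 257 and 205 against 125.2 and 127.7 (-0.85 ± 0.18, limma adjusted p = 0.00666). Srsf3, the smallest of the classical SR proteins, was at 159, 190 and 166 against 114 and 97.4 (-0.70 ± 0.18, limma adjusted p = 0.0162). Srsf1 was at 104, 170 and 124 against 76.9 and 67.7 (-0.84 ± 0.22, limma adjusted p = 0.0194). These were the 4 highest SR transcripts of OPCs by mean FPKM, and the sum over all 10 SR genes was 952 ± 132 FPKM in OPCs (SD, n = 3) and 645 ± 16.4 in OLs (SD, n = 2). Srsf5, with 51.4, 81.8 and 60.8 FPKM against 74.0 and 78.7, did not pass (0.26 ± 0.22, limma adjusted p = 0.385).

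Among hnRNPs, Hnrnpab was at 245, 275 and 237 FPKM in OPCs and 147 and 112 in OLs (-0.97 ± 0.19, limma adjusted p = 0.00497). Hnrnpf, a binder of G-runs, was at 93.5, 113 and 90.0 against 60.9 and 60.5 (-0.69 ± 0.18, limma adjusted p = 0.0176). Its paralog Hnrnph2 was the other member that was higher in OLs, at 20.3, 28.9 and 24.0 against 40.4 and 39.3 (0.70 ± 0.22, limma adjusted p = 0.0361). The Hnrnph2 call was lost without OPC replicate 1, OPC replicate 3 or either OL replicate and with the replicate block (limma adjusted p of 0.0172 to 0.170 over the alternatives). Hnrnpa2b1 was at 127, 242 and 168 FPKM against 187 and 147, which overlap (-0.06 ± 0.26, limma adjusted p = 0.886), and Hnrnpk was at 294, 319 and 278 against 248 and 203 (-0.40 ± 0.19, limma adjusted p = 0.129). The remaining lower members were Snrpf, Snrpd2, Hnrnpul1, Hnrnpdl and Hnrnpa0, with log2 changes of -0.53 to -0.88. With the replicate block Snrpd2, Hnrnpul1, Hnrnpdl and Hnrnpa0 no longer passed.

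The 22 lower calls rest on few replicates: 9 members were lower without OPC replicate 3, 9 without OL replicate 1 and 8 without OL replicate 2, where 9.38%, 8.56% and 10.9% of all transcripts were. In the same settings 0 members were higher, where 8.3%, 5.91% and 7.03% of all transcripts were. Of 5 markers of dividing cells, 5 were listed in OPCs with 232 to 366 summed FPKM and 4 in OLs with 63.9 and 26.6. By limma Top2a, Mcm6 and Ccnb1 were lower in OLs at 0 h, Mki67 did not pass (adjusted p = 0.071) and Cdk1 was not listed in OLs. Their part in the change of splicing factors was not tested.

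**Figure D3:**
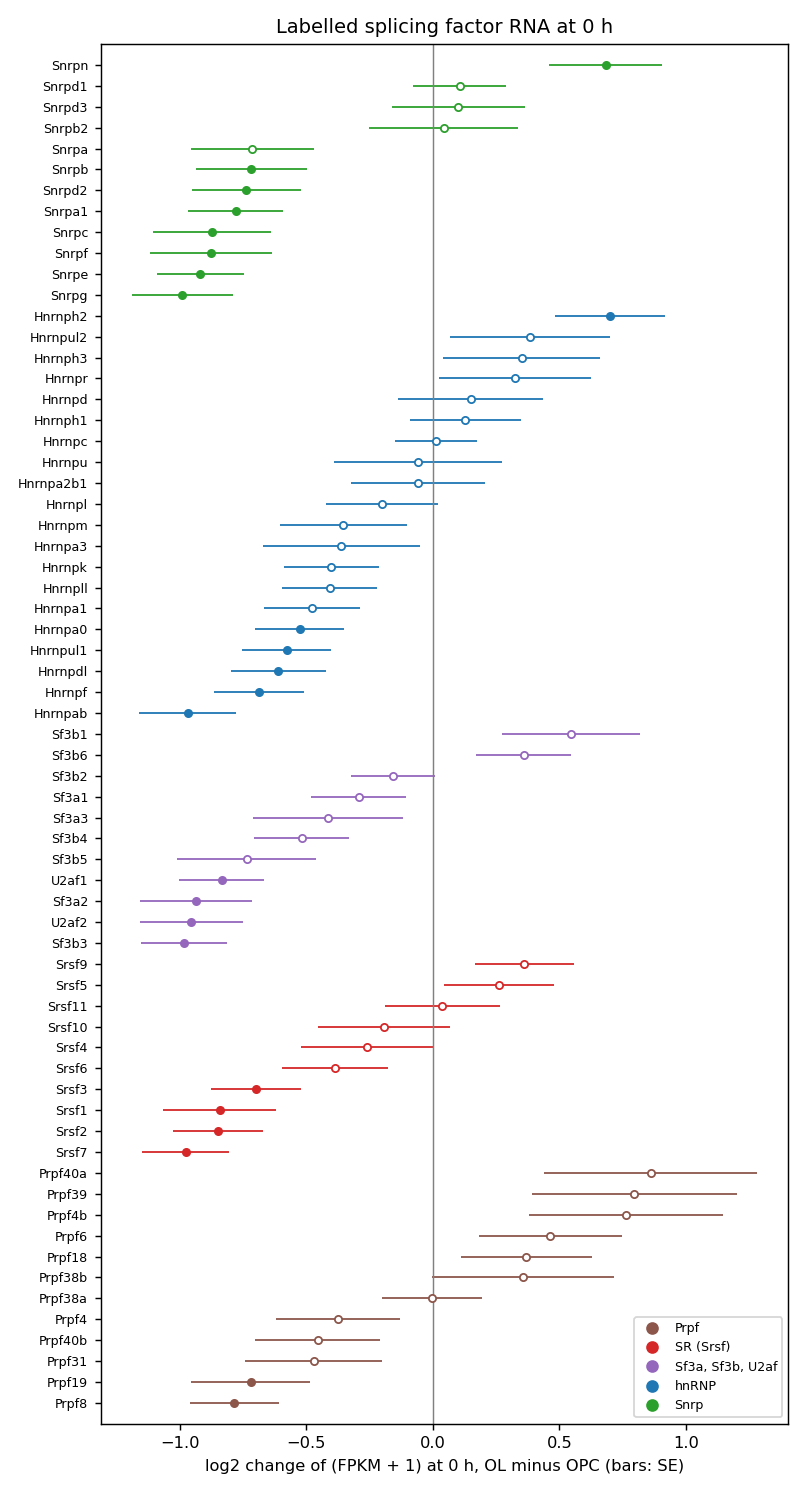
Log2 change of (FPKM + 1) at 0 h, OLs minus OPCs, for 65 splicing factor transcripts grouped by class, with bars for the standard error over 3 OPC and 2 OL replicates and filled points for a limma adjusted p under 0.05. Of the 24 filled points 22 lie left of 0, and Hnrnph2 and Snrpn lie right of it.

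Whether single members changed in half-life between the cell types was asked with limma on log2 half-lives. No member passed, with 0 longer and 0 shorter of 65, where 3.39% of all 8112 transcripts were longer in OLs and 0.148% were shorter, and the unadjusted p was under 0.05 for 8 members (12.3%) and for 23.0% of all transcripts. Half-lives changed by a median of 0.00 on the log2 scale in members and 0.37 in all transcripts, and the 16 members at the ceiling throughout could show none. By position, 12 members had both OL half-lives above all OPC half-lives, where 35.9% of all transcripts did, and 3 had both below, where 2.01% did. The 12 were 4 SR, 4 Prpf and 4 U2-group genes, and the 3 were Srsf1, Hnrnpu and Snrpb2.

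The largest change by p was that of Sf3a2 (1.65 ± 0.22 log2, limma adjusted p = 0.0589), followed by Srsf7 (0.48 ± 0.09, limma adjusted p = 0.0931) and U2af1 (0.68 ± 0.14, limma adjusted p = 0.106). For U2af1 the half-lives were 3.26, 4.15 and 3.27 h in OPCs and 5.54 and 5.79 h in OLs, and it passed without OPC replicate 2 (0.79, limma adjusted p = 0.0371). Srsf1 had lower half-lives in OLs but did not pass, at 6, 5.22 and 6 h in OPCs and 3.41 and 4.21 h in OLs (-0.60 ± 0.13, limma adjusted p = 0.117). Its label left at 4 h was 84.8%, 58.8% and 81.6% in OPCs and 53.8% and 58.9% in OLs. At 6 h 25.1%, 30.6% and 50.2% was left in OPCs and 26.2% and 37.3% in OLs, which overlap. Its slope, which has no ceiling, differed by -0.0095 ± 0.08 log2 units per hour (OLs minus OPCs, SE, limma adjusted p = 0.945). When the libraries were rescaled to 1 mean decay curve, Srsf1 passed as shorter (-1.03 ± 0.05, limma adjusted p = 0.00962), together with Hnrnpa0, Hnrnpd, Hnrnpu, Hnrnpul2 and Snrpd1, where 3.14% of all transcripts were shorter and 1.1% longer. Under that scaling the lengthening of Srsf7 and U2af1 was gone, at -0.0034 and -0.11.

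The slopes gave a test of the same difference without a ceiling. Of 65 members 8 fell less steeply in OLs and 0 more steeply at an adjusted p under 0.05, where 23.7% of all 8177 transcripts fell less steeply and 0.0856% more steeply. These were Sf3a2, Sf3b4, Srsf2, Srsf4, Srsf5, Prpf6, Prpf38a and Prpf40b, and 0 of 20 hnRNPs and 0 of 12 Snrp genes. For Sf3a2 the slope was -0.59, -0.76 and -0.55 in OPCs and -0.16 in both OL replicates, a difference of 0.47 ± 0.08 (SE, limma adjusted p = 0.00527). For Sf3b4 it was -0.61, -0.77 and -0.58 against -0.30 and -0.22 (0.39 ± 0.08, limma adjusted p = 0.01). Srsf4, an SR protein with a long arginine-serine tail, had -0.44, -0.60 and -0.59 against -0.21 and -0.18 (0.35 ± 0.08, limma adjusted p = 0.0128). In each of these the cell types did not overlap, which follows in part from their selection by this test. Prpf6 was listed at 0 at 6 h in all 3 OPC replicates, Prpf38a in 1 and 3 and Prpf40b in 2 and 3, so their OPC slopes rest in part on a value of 0. The median difference was 0.05 for members and 0.14 for all transcripts. With a pseudocount of 0.1 only 2 members were less steep, where 6.96% of all transcripts were, and without 6 h libraries 5 were, where 15.1% were. With each time point set to its 0 h median, 1 member was less steep and 16 were steeper in OLs, where 2.43% of all transcripts were less steep and 9.93% steeper, with medians of -0.17 for members and -0.07 for all transcripts. Without OL replicate 1 or OL replicate 2 no member passed, and 88 and 0 of all transcripts did.

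**Figure D4:**
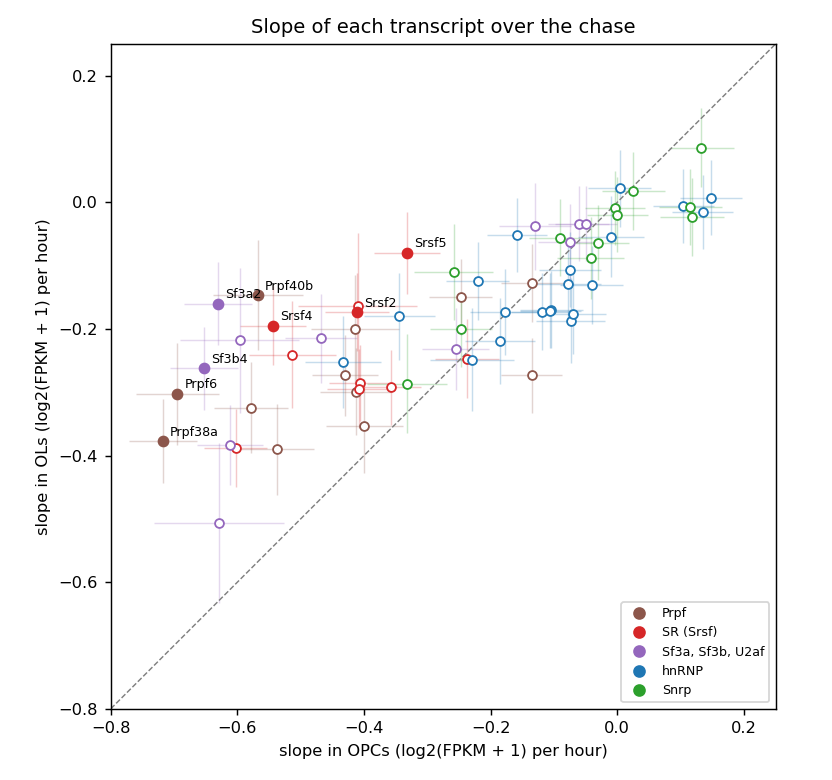
Slope of log2(FPKM + 1) per hour of chase in OPCs (x axis) and OLs (y axis) for 65 splicing factor transcripts coloured by class, with bars for the standard error and filled, named points for the 8 members that differed between cell types at a limma adjusted p under 0.05. Points above the dashed line of equality had the higher slope in OLs, as did 41 of 65 members and 6792 of all 8177 transcripts.

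Other genes of splicing were read from a list of 79, chosen by function, of which 67 were listed in both tables. At 0 h 4 of the 67 were higher in OLs and 16 lower by limma at an adjusted p under 0.05, with a median log2 change of -0.15. These are shares of 5.97% and 23.9%, beside 14.1% and 17.5% of all transcripts. The lower genes included 5 of the Lsm genes, which form the ring on U6 snRNA, with Lsm4 at -1.19 ± 0.21 and Lsm2 at -1.72 ± 0.32. Also lower were Eftud2 of the U5 snRNP (-0.90 ± 0.18), Phf5a of SF3b (-0.98 ± 0.17) and the splicing repressor Ptbp1 (-1.72 ± 0.17). The higher genes were the SR protein kinases Clk1 (1.10 ± 0.30) and Clk4 (1.14 ± 0.26), Crnkl1 (1.28 ± 0.41) and Ptbp3 (1.07 ± 0.30). In half-life 2 of 65 were longer in OLs and 0 shorter, and these were Dhx16 (1.56 ± 0.06 log2, limma adjusted p = 0.0117) and Ptbp1 (0.76 ± 0.06, limma adjusted p = 0.027), against 3.39% of all transcripts. In OPC replicates 2 and 3 both genes were at 1.96 h, the value at which the fit settles, and both OL values of Dhx16 were at the 6 h ceiling, so the fit itself sets part of the spread behind these p-values. In slope 18 of 67 were less steep in OLs and 0 steeper, a share of 26.9% beside 23.7% of all transcripts. Their median percentile of half-life was 56.5, 57.4 and 60.7 in OPCs and 50.3 and 50.8 in OLs, below the members' 70.2 to 84.2 in OPCs and 55.2 to 80.6 in OLs in each replicate.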

How the data were processed

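The authors aligned reads to GRCm38 and tabulated FPKM over canonical coding transcripts (HISAT2 2.1.0 and StringTie 1.3.5 in the submitters' processing notes), scaled them to labelled spike-ins, and dropped transcripts under 1 FPKM at 0 h or at 0 at 1 and 2 h. Half-lives in hours, also deposited, come from the authors' fit of single exponentials by least absolute deviations, with a ceiling near 6 h that was set to 6 h here. A refit fell within 0.01 h of 98.5% to 99.9% of them. All 26 samples were grouped by their labels, and the control without biotin was not analysed here. 1 oligodendrocyte marker is not reported here. The methods describe scaling at each time point. At 0 h 89.8% to 90.3% of values have 6 decimals, against at most 15.9% later, and the 0 h values were therefore read as unscaled, which is an inference. Depth is unknown, so no counting error is given.

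Half-lives (log2), FPKM at 0 h (log2(FPKM + 1), trend) and slopes over the chase were compared with limma 3.58.1 in R 4.3.3 over all transcripts, with Benjamini-Hochberg adjustment, a threshold of 0.05 and the replicate as the unit. Tests were checked on simulated data drawn with a single spread, without the 6 h ceiling or the values gathered at 1.96 h. That check therefore does not cover these features of the half-lives. The study calls the replicates biological and says that the OLs match 2 of the OPC replicates, without saying which, and p-values measure the spread between these replicates only. A fold change on the log2(FPKM + 1) scale understates that of low genes. An exact permutation test of 3 against 2 replicates cannot go below p = 0.1 and was not used. Ranks used half-lives rounded to 0.01 h. The members, classes and lists were chosen with earlier results of these data known. Members named with values had an adjusted p under 0.05 in the 0 h or half-life comparison (the 15 lowest p in each direction), the highest or lowest mean rank of half-life in a class, or the highest mean 0 h FPKM in a class. Sf3b4, Sf3a3, Sf3b1, Srsf1, U2af1, Hnrnpa2b1 and others named beyond this were chosen after their values were seen. Alternatives changed the pseudocount, a filter on low FPKM, the scaling, the time points, the ceiling, a replicate block and the replicates used. Sequences came from GRCm38 with GENCODE M21, where 66 of 66 members matched by transcript identifier.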

Additional observations from a re-analysis of the deposited data

Results flagged for a closer look

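Members whose decline differed between OPCs and OLs by the test of the difference in slope (OLs minus OPCs, log2 units of FPKM + 1 per hour, limma over 8177 transcripts) were Sf3a2 (0.47 ± 0.08 SE, adjusted p = 0.00527), Sf3b4 (0.39 ± 0.08, adjusted p = 0.01), Srsf4 (0.35 ± 0.08, adjusted p = 0.0128), Prpf38a (0.34 ± 0.09, adjusted p = 0.0169), Prpf6 (0.39 ± 0.10, adjusted p = 0.0203), Prpf40b (0.42 ± 0.11, adjusted p = 0.0209), Srsf5 (0.25 ± 0.08, adjusted p = 0.0447) and Srsf2 (0.24 ± 0.08, adjusted p = 0.0465). Prpf6 was listed at 0 at 6 h in all 3 OPC replicates, and Prpf38a and Prpf40b in 2 of them. All 8 fell less steeply in OLs, the direction in which 23.7% of all transcripts passed. They were selected by this test, so the separation of their slopes adds nothing to it. With each time point set to its 0 h median 1 of them still passed, and with a pseudocount of 0.1 only 2 did. Groups of 3 and 2 replicates were too small for the test of single outlying samples.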

How the results depend on the processing

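Depth is unknown, the spike-in scale is 1 factor per library, and half-lives stop at 6 h, so differences among the most stable members were not measurable. Of 65 members 0 passed in the half-life comparison, in which the 16 at the ceiling throughout could show no change. The count was also 0 with the block, with centring and in the refit without 6 h libraries, where 0, 1 and 24 of all 8112 transcripts passed, so those counts say nothing on stability, and it was 0 with percentiles and without transcripts at the ceiling (18 members tested). After rescaling to 1 mean decay curve 6 were shorter (3.14% of all transcripts), and leaving out single replicates gave 0 to 1 longer (1.48% to 2.61% of all) and 0 to 3 shorter (0.0616% to 1.13%). The calls without OL replicate 1 (Prpf18 longer) and without OL replicate 2 (Prpf18, Hnrnpf and Hnrnph2 shorter) rest on OPC half-lives that were identical in all 3 replicates. Half-life changes reversed for Srsf4 (-0.093 centred, -0.085 after rescaling to the mean curve, -0.46 without 6 h), Srsf7 (-0.42, a percentile change of -5.35, and -0.0034 after rescaling to the mean curve) and U2af1 (-0.22, -3.73 and -0.11). At 0 h the counts were 8 to 23 lower (8.56% to 18.5% of all transcripts) and 0 to 5 higher (5.91% to 17.1%) when single replicates were left out. For slopes in OPCs, 2 members rose with a pseudocount of 0.1 (1.79% of all), 38 rose and 7 fell with each time point set to the 0 h median (40.1% and 16.2%), and 1 rose and 25 fell without 6 h libraries (1.17% and 66.2%). Leaving out replicates gave 1 to 3 rising (0.819% to 2.46%) and 37 to 40 falling (77.3% to 79.9%). In OLs 12 fell with the pseudocount of 0.1 (28.2%), 14 rose and 1 fell with the 0 h median (21.8% and 8.72%), 14 fell without 6 h (33.3%), and 5 to 36 fell with replicates left out (24.4% to 63.6%). In the difference of slopes 2 members were less steep with the pseudocount of 0.1 (6.96%), 1 was less steep and 16 were steeper with the 0 h median (2.43% and 9.93%), 5 were less steep without 6 h (15.1%), and 0 to 10 with replicates left out (0% to 27%). The cause of these shifts was not tested beyond the fewer samples or time points used. With the replicate number as a block, 18 members were lower and 1 was higher at 0 h (14.4% and 13.2% of all), 12 were less steep (27.8% of all transcripts) and 0 passed in half-life. At 0 h Hnrnpa0, Hnrnpdl, Hnrnpul1, Snrpa1, Snrpd2, Hnrnph2 and Snrpn no longer passed with it. The OLs match 2 of the OPC replicates per the study, which does not say which. Same-numbered replicates did not deviate together (correlations of -0.105 to 0.0589 over 3 measures), so the numbers were not taken as pairs.

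Class medians of half-life kept their value within the spread between replicates in most alternatives. The refit without 6 h libraries gave 4.53 h for SR in OLs, 3.65 h (percentile 50.2) for Prpf in OPCs and 2.63 h for Prpf in OLs. Rescaling to 1 mean decay curve gave 2.82 h for SR, 4.14 h for hnRNPs, 5.69 h (percentile 82.9) for Snrp, 3.63 h for the U2 group and 2.20 h for Prpf in OLs, and 2.41 h for Prpf and a percentile of 83.3 for Snrp in OPCs. With single replicates left out the medians in OPCs were 2.09 to 2.21 h for Prpf, 3.45 to 4.57 h for SR, 3.68 to 5.04 h for the U2 group, 5.90 to 6 h for hnRNPs and 6 h for Snrp. In OLs they were 2.83 to 2.84 h, 4.00 to 4.41 h, 5.79 to 6 h, 5.32 to 6 h and 6 h.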
